A study of Rattus norvegicus with 12 samples.

Results

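The genes described here encode axon guidance cues and the cell-surface proteins that read them, in rat Schwann cells grown with or without macrophages. Members were taken by gene symbol: every row of the gene table naming a semaphorin of classes 3 to 7, a plexin, a neuropilin, a netrin, an Unc5 receptor, a Slit, a Robo, an ephrin or an Eph receptor. The symbols matched 68 of 30957 genes, of which 35 encode ligands and 33 encode receptors. RNA was sequenced in 4 groups of 3 libraries. In the MiaTAM group, Schwann cells were grown with tumour-associated macrophages (TAM) that had been induced by the culture supernatant of MIA PaCa-2, a human pancreatic ductal adenocarcinoma line. In the BxTAM group the macrophages had been induced by supernatant of BxPC-3, another human line of that cancer. In the MDM group the partners were monocyte-derived macrophages, and these libraries carry the title PBMC. The cells alone are titled Rsc96, and HSC96 in their short description. RSC96 is an immortalised line of rat Schwann cells, so a single line stands for the cell type here. The labels call the MDM samples and the cells alone untreated. No source used here states the macrophage species, how long the co-culture lasted or whether the cells touched. The design text counts 1 more kind of TAM, not analysed here. The comparisons ask how the levels of guidance genes differ between Schwann cells with each kind of macrophage and the same cells alone, and between the kinds of macrophage.

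Guidance cues steer growing axons and migrating cells by attraction or repulsion. Class 3 semaphorins are secreted and signal through complexes of a neuropilin and a plexin, while most membrane-bound semaphorins bind plexins directly. Netrins act through Dcc-family and Unc5 receptors, Slits through Robo receptors, and the membrane-anchored ephrins through Eph receptor tyrosine kinases at contacts between cells. Schwann cells use several of these systems when they sort from fibroblasts and guide regrowing axons after nerve injury, and pancreatic cancer is known for growth along nerves.

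Counts per library summed to 16555215 to 21506669. No label says that replicate libraries stem from different cultures, so the p-values describe the variation among these libraries, which could be technical in part. Levels are given as counts per 1e6 counts (CPM) of libraries scaled by the trimmed mean of M-values, and each ± after a level is an SD over 3 libraries. Changes are on the log2 scale with ± their standard error, from edgeR's quasi-likelihood test across all 12360 genes that passed its filter on low counts, and a gene was called at a Benjamini-Hochberg adjusted p under 0.05. Among markers of Schwann cells, Erbb3 and Ncam1 were present, whereas Sox10, a transcription factor that defines Schwann cells, summed to 1 count over the 12 libraries and Cdh19 to 0. Of 20 macrophage markers, C1qa and Tyrobp were at 0 in every library and Ptprc had at most 2 counts in a group. Their summed level was 66.4 to 70.5 CPM with MiaTAM, 60.2 to 61.9 with BxTAM, 62.9 to 69.1 with MDM and 28.0 to 30.8 alone. Most of it came from the integrin Itgax, at 41.4 CPM with MiaTAM, 37.6 with BxTAM, 46.2 with MDM and 17.2 alone. Only 7 markers passed the filter, and 6 of these were called higher in each co-culture, as were 30% to 32.0% of all tested genes. The other markers had at most 27 counts in a group (Spi1 with BxTAM) and were not tested. Summed endothelial markers, mostly Flt1, were 74.9 to 80.2 CPM with MiaTAM, 65.3 to 66.8 with BxTAM, 51.2 to 52.0 with MDM and 53.3 to 57.1 alone. Summed fibroblast markers were 472 to 505, 421 to 444, 483 to 507 and 369 to 381 CPM in the same order, epithelial markers 4.55 to 4.96, 3.41 to 4.61, 8.69 to 9.85 and 3.14 to 3.86, and neuronal markers 121 to 131, 138 to 152, 119.7 to 125 and 109 to 123. In each group only 1 of 5 neuronal and 1 of 5 epithelial markers averaged above 1 CPM, so each of these sums is mostly 1 gene. Of 7 fibroblast markers, 3 were at 0 in every library. The part of other cells in the results was not tested. In bulk RNA, fewer cells of a type and less RNA per cell cannot be told apart.

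Of the 68 members, 57 had at least 1 count and 46 passed the filter, 25 ligands and 21 receptors. Since a gene could pass through the group in which it is high, counts over these 46 are given beside the same counts over all tested genes and describe only them. The 11 members at 0 in every library were Epha1, Epha6, Ephb1, Ntn1, Plxna4a, Plxnb3, Robo4, Sema5a, Sema5b, Slit3 and Unc5d. They include Ntn1, the founding vertebrate netrin. Another 11 had too few counts for the filter: Efnb3 with 64 counts over 12 libraries, Efna2 with 53, Unc5a with 35, Plxnc1 with 19, Ntn5 with 18, Robo3 with 10, Epha8, Sema3e and Sema4f with 3 each, and Epha10 and Sema6d with 1 each. Unc5a, a netrin receptor, had 19 counts with MiaTAM, 5 with BxTAM and 11 with MDM, against 0 alone. Set against a floor of 3 counts over the 3 libraries alone, its observed level was 6.54-fold higher with MiaTAM, 1.72-fold with BxTAM and 3.64-fold with MDM. The counting error of the co-culture counts is not in these ratios, and they were not tested. Library 3 of BxTAM and library 3 of MDM each had 0 counts of Unc5a.

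On the authors' FPKM scale, which divides a count by gene length and library total and so allows levels of different genes to be compared, 4 members stood above all others in every group. They were Sema3c, a secreted semaphorin that signals through both neuropilins, the neuropilin Nrp2, the ephrin receptor Epha2 and the plexin Plxnb2. Each of these was above 50 FPKM in every group, and no other member was. With MiaTAM the order was Epha2 at 163 ± 6.64 FPKM, Nrp2 at 123 ± 0.787, Plxnb2 at 99.4 ± 3.36 and Sema3c at 91.5 ± 6.32, and the libraries of the last pair overlapped. With BxTAM it was Epha2 at 157 ± 4.59, Nrp2 at 136 ± 1.5, Sema3c at 111 ± 2.84 and Plxnb2 at 90.7 ± 1.46 FPKM. With MDM it was Epha2 at 172 ± 3.58, Nrp2 at 117 ± 1.51, Plxnb2 at 96.1 ± 1.61 and Sema3c at 81.1 ± 2.77 FPKM. Alone, Sema3c was first at 168 ± 2.72 FPKM, ahead of Nrp2 at 141 ± 2.3, Epha2 at 131 ± 1.95 and Plxnb2 at 94.2 ± 4.56. Sema3c thus led the order in the cells alone and stood behind both Epha2 and Nrp2 in the co-cultures, and Epha2 led in each co-culture. At least 10 FPKM was reached by 16 members with MiaTAM, 15 with BxTAM, 16 with MDM and 16 alone, and at least 1 FPKM by 34, 33, 33 and 31 in the same order.

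**Figure D1:**
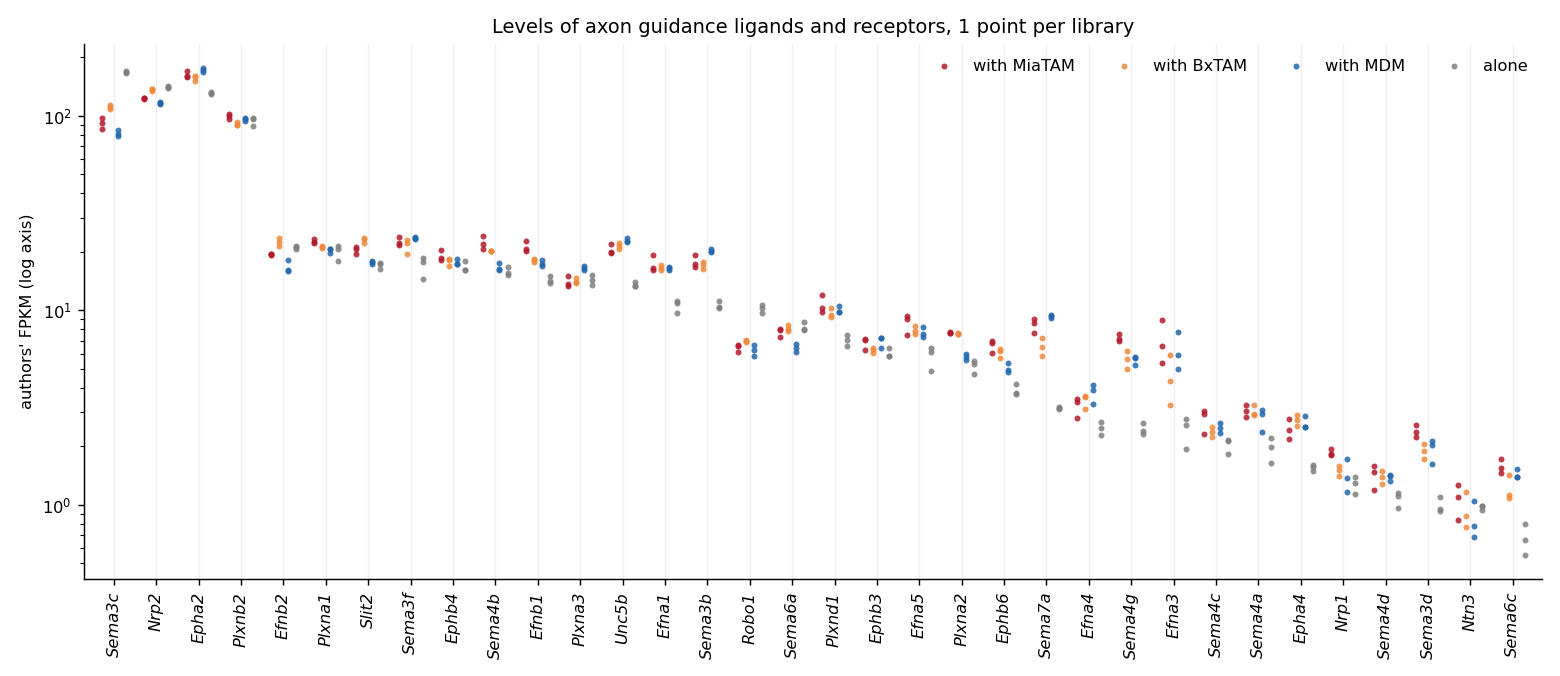
Authors' FPKM (log axis) of the members that reach 1 FPKM in some group, with 1 point per library and colours for MiaTAM, BxTAM, MDM and the cells alone. Sema3c, Nrp2, Epha2 and Plxnb2 stand apart from the rest, and the points of Sema3c alone, at 168 FPKM on average, lie above those of all 3 co-cultures.

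Promoter windows of 300 bases, 250 before and 50 after the annotated start, were held for 53 of the 68 members, 36 of them tested, in RefSeq on the rat build GRCr8. The windows of 5 members whose levels changed are printed 5′ to 3′ on the gene's strand, so that the starts of genes that fell with macrophages (Sema3c, Robo1) can be set beside those of genes that rose (Sema7a, Efna3, Ntn4). They are Sema3c at chr4:18699578-18699877 (minus strand), Robo1 at chr11:24067706-24068005 (plus strand), Sema7a at chr8:67244068-67244367 (plus strand), Efna3 at chr2:177035789-177036088 (minus strand) and Ntn4 at chr7:30073387-30073686 (plus strand). Capitals mark a CCAAT box (CCAAT) or a GC box (GGGCGG), each also as its reverse complement.
Sema3c: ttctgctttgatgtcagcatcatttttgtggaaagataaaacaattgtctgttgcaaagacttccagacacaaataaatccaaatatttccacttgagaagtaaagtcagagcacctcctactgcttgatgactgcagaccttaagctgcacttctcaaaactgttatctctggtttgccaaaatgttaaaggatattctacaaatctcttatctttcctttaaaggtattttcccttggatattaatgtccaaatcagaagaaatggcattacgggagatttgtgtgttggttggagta
Robo1: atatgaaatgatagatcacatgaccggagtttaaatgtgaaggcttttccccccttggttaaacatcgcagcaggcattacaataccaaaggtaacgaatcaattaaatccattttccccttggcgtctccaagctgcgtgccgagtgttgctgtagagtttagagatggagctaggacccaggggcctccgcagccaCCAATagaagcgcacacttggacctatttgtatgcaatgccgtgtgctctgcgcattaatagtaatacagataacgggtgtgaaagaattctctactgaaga
Sema7a: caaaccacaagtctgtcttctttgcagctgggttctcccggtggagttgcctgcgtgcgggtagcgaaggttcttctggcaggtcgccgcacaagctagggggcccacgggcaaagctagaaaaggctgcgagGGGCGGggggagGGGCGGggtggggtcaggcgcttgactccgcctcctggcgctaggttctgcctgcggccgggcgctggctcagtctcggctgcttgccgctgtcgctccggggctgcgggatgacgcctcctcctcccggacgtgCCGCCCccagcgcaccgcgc
Efna3: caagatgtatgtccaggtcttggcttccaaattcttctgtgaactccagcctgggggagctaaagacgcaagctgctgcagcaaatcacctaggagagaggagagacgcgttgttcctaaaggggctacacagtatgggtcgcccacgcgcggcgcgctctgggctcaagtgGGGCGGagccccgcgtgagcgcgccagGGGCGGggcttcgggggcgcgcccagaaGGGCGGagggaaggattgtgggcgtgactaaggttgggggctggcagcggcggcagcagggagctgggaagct
Ntn4: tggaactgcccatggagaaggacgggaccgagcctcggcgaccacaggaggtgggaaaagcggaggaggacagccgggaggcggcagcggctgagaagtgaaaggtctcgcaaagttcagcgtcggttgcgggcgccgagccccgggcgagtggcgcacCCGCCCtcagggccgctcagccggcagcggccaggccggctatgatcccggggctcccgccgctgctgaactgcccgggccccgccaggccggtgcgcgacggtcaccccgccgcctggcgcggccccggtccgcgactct

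The Sema3c window had 36.3% G and C and 1 CpG, and none of 5 motifs searched on both strands. The Robo1 window had 45.7% G and C, 11 CpG and 1 CCAAT box. Of the windows printed, those of Sema7a, Efna3 and Ntn4 were richer. Sema7a had 69.7% G and C, 28 CpG and 3 GC boxes, Efna3 had 64.3%, 22 CpG and 3 GC boxes, and Ntn4 had 74.0%, 38 CpG and 1 GC box. No window was held for Unc5c, which fell, or Sema4g, which rose. Whether windows differ between genes that rose and genes that fell was not tested. Over the 36 windows of tested members the median was 63.8% G and C and 18 CpG, against 52.3% and 7 over all 27457 windows of the table. A GC box was in 19 of the 36 (52.8%), against 34.9% of all windows, and a CCAAT box in 13 (36.1%), against 37.7%. The E-box CACGTG was in 3 (8.33%), against 6.65%. The TATA box TATAAA was in 0 of 36, against 14.3%, and the AP-1 sequence TGANTCA in 0 of 36, against 7.33%. These are matches of letters within a fixed window, and tested genes differ from the whole table in being expressed.

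Guidance genes were mostly higher in Schwann cells with macrophages than in the cells alone, and this held for ligands and receptors. With MiaTAM, 35 of the 46 tested members were called higher and 4 lower than alone, a share of 84.8% against 65.1% of all tested genes, of which 31.4% were called higher and 33.7% lower. With BxTAM, 29 were higher and 3 lower, a share of 69.6% against 60.9% of all tested genes, with 30% higher and 30.9% lower. With MDM, 30 were higher and 6 lower, a share of 78.3% against 65.1%, with 32.0% higher and 33.1% lower. The excess over the background was therefore in the higher direction, and fewer members than genes at large were called lower. The median log2 change of tested members was 0.58 with MiaTAM, 0.44 with BxTAM and 0.46 with MDM, while the median over all tested genes was -0.0063, 0.001 and -0.0061. Of 25 ligands, 20 were higher and 1 lower with MiaTAM, 18 and 1 with BxTAM, and 17 and 3 with MDM. Of 21 receptors, 15 were higher and 3 lower with MiaTAM, 11 and 2 with BxTAM, and 13 and 3 with MDM. A change of 2-fold or more was called for 12 members with MiaTAM, 7 with BxTAM and 11 with MDM, where 8.93%, 7.56% and 8.46% of all tested genes were. The 3 comparisons share the 3 libraries of cells alone and are not independent of each other.

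**Figure D2:**
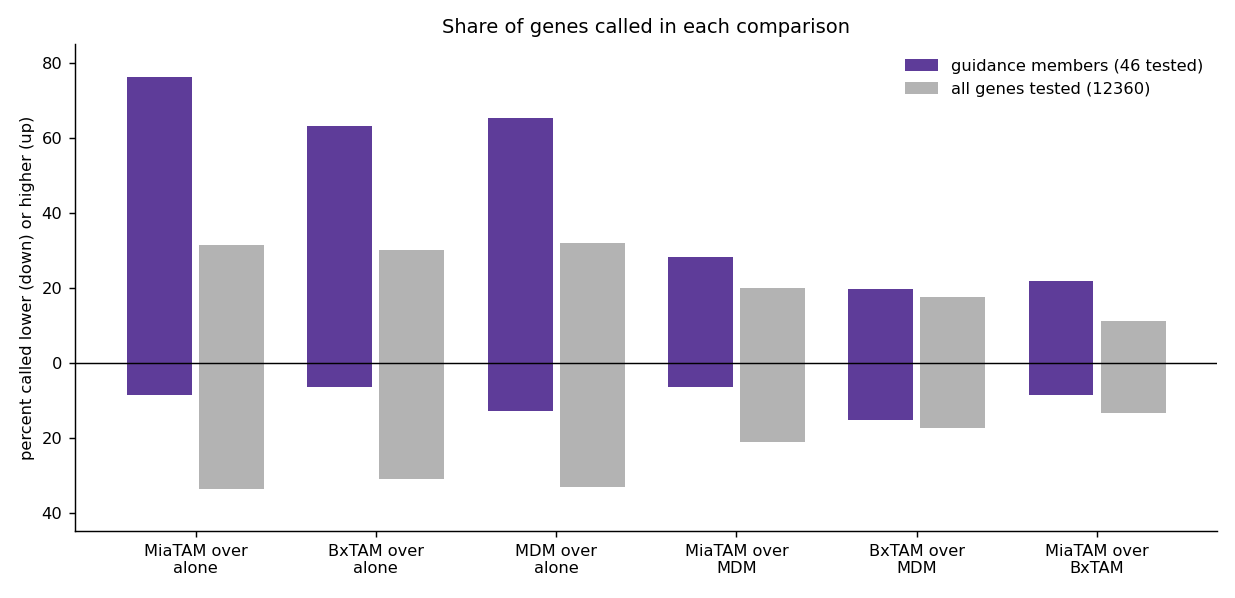
Percent of the 46 tested members and of all 12360 tested genes called higher or lower (edgeR, adjusted p under 0.05) in each of 6 comparisons. Against the cells alone, 63.0% to 76.1% of members were called higher, against 30% to 32.0% of all genes, and between kinds of macrophage both shares were smaller.

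Among better-measured genes, more members were still called higher than lower, with smaller medians. Of the 32 members with a mean of at least 5 CPM over all libraries, 25 were higher and 3 lower with MiaTAM, 21 and 2 with BxTAM, and 21 and 5 with MDM. Of the 10008 genes at that level, 31.8%, 31.2% and 32.2% were higher in the same order, and 37.8%, 34.7% and 37.2% lower. The median log2 change of these 32 members was 0.48, 0.37 and 0.36. Of the 22 members with a mean of at least 20 CPM, 15 were higher and 3 lower with MiaTAM, 12 and 2 with BxTAM, and 12 and 5 with MDM, and the medians were 0.30, 0.31 and 0.21. Calls over all genes at 20 CPM were not counted, so these counts have no background beside them. The summed level of all members was 4168 to 4294 CPM with MiaTAM, 4275 to 4302 with BxTAM, 4064 to 4105 with MDM and 4095 to 4255 alone. The 3 highest members took 50.4% to 51.3% of that sum with MiaTAM, 49.7% to 50.9% with BxTAM, 52.1% to 53.2% with MDM and 57.3% to 58.5% alone.

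**Figure D3:**
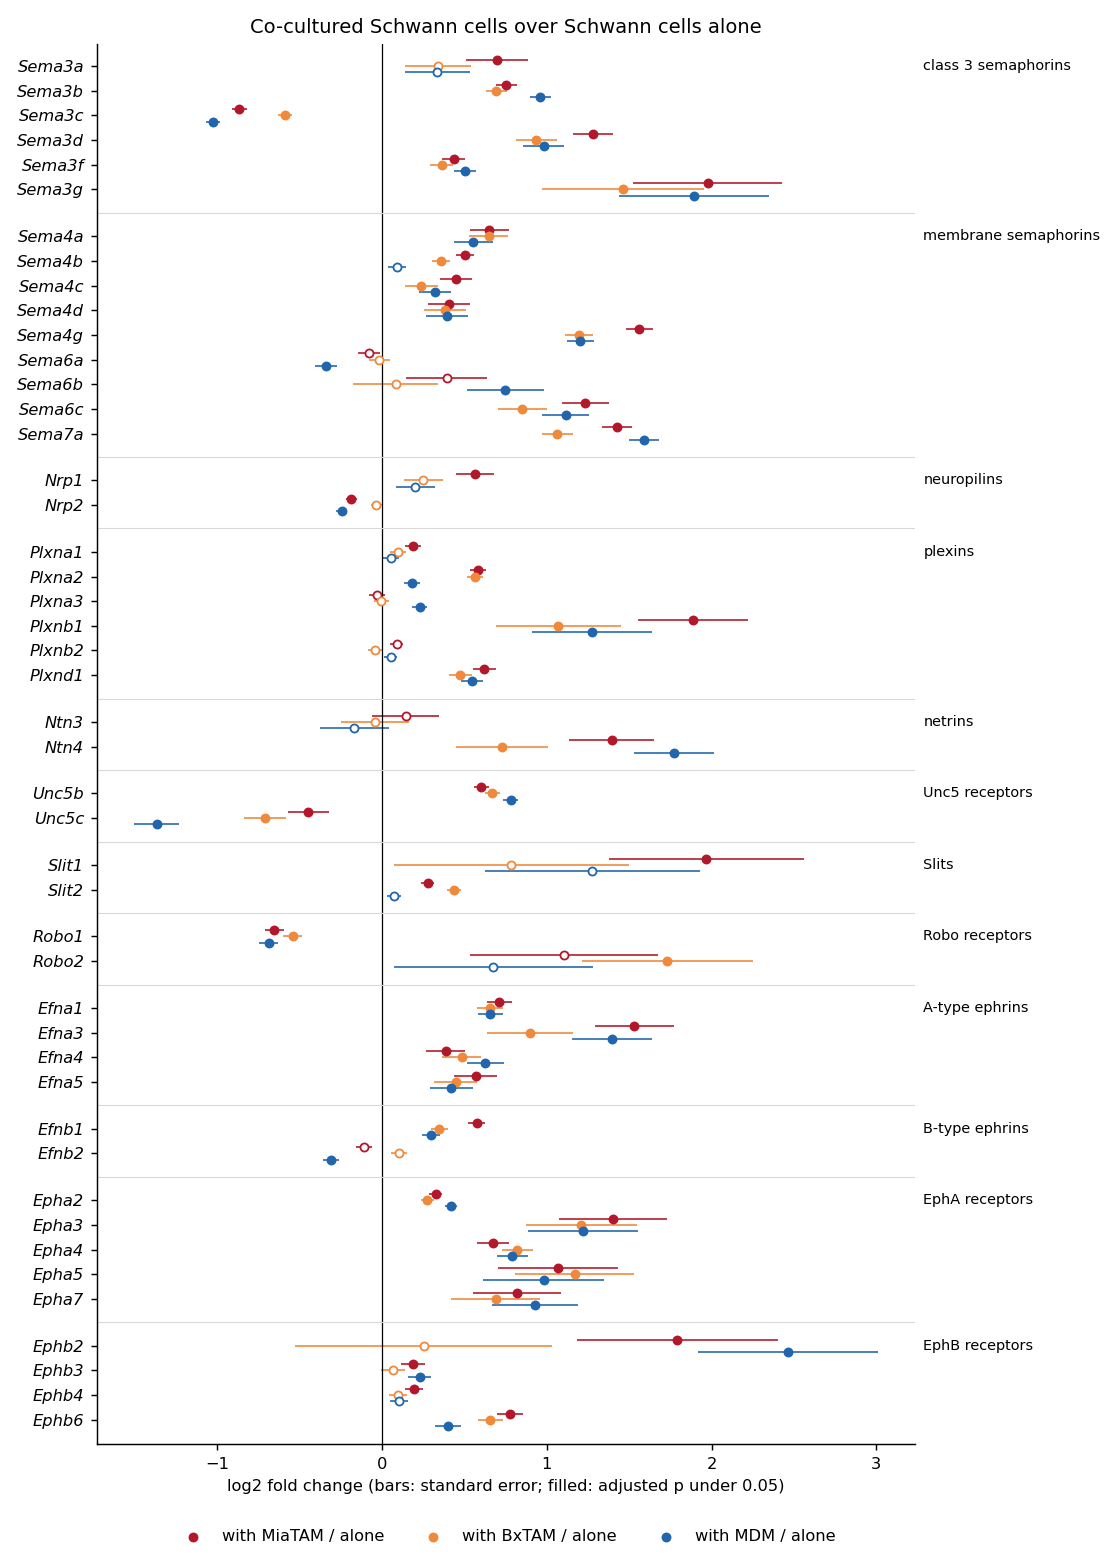
Log2 change against the cells alone, ± standard error, of the 46 tested members ordered by family, for MiaTAM, BxTAM and MDM co-culture. Filled symbols were called at an adjusted p under 0.05, and those of Sema3c, Robo1 and Unc5c lie left of 0 in all 3 co-cultures.

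Among the class 3 semaphorins, the secreted ligands of neuropilin and plexin complexes, Sema3c fell and Sema3b, Sema3d, Sema3f and Sema3g rose with each kind of macrophage. Of 6 tested, 5 were called higher and 1 lower with MiaTAM, and 4 and 1 with BxTAM and with MDM. Sema3c had 493, 431 and 469.8 CPM with MiaTAM, 551, 579 and 560.5 with BxTAM, 429.5, 409 and 410.1 with MDM, and 846, 829.6 and 863 alone. Every co-culture library was below every library of cells alone, and the 3 co-culture groups did not overlap each other. The log2 change was -0.86 ± 0.04 with MiaTAM, -0.59 ± 0.04 with BxTAM and -1.02 ± 0.04 with MDM (edgeR adjusted p of 3.95e-10 or less in each). That is 0.549, 0.666 and 0.492 times the level alone in the same order.

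Sema3d, another secreted semaphorin, had 11.7, 11.1 and 12.8 CPM with MiaTAM, 9.39, 8.51 and 10.2 with BxTAM, 8.07, 10.7 and 10.1 with MDM, and 4.6, 4.64 and 5.43 alone. All 9 co-culture libraries were above the cells alone, by 1.28 ± 0.12 with MiaTAM, 0.94 ± 0.12 with BxTAM and 0.98 ± 0.12 with MDM (edgeR adjusted p of 1.66e-06 or less). Sema3b was 44.7 ± 3.36 CPM with MiaTAM, 42.7 ± 1.88 with BxTAM, 51.5 ± 1.25 with MDM and 26.4 ± 1.2 alone, a change of 0.75 with MiaTAM, 0.69 with BxTAM and 0.96 with MDM. Sema3f, which binds Nrp2 in preference to Nrp1, came after Sema3c among class 3 genes on the FPKM scale. It was at 168 ± 8.54 CPM with MiaTAM, 160.0 ± 12.9 with BxTAM, 176 ± 1.78 with MDM and 124 ± 15.4 alone, and rose by 0.44 with MiaTAM, 0.36 with BxTAM and 0.50 with MDM. Both genes thus rose in each co-culture, Sema3b by more. Sema3a, the classical collapsing factor of growth cones and a ligand of Nrp1, was at 2.67 ± 0.123 CPM with MiaTAM, 2.09 ± 0.36 with BxTAM, 2.09 ± 0.242 with MDM and 1.65 ± 0.309 alone. Its log2 difference was 0.70 with MiaTAM, 0.34 with BxTAM and 0.34 with MDM, and only the one with MiaTAM was called. Sema3g was under 1 CPM, at 0.786 ± 0.179 CPM with MiaTAM, 0.549 ± 0.181 with BxTAM, 0.766 ± 0.264 with MDM and 0.193 ± 0.10 alone, and its change of 1.98 with MiaTAM, 1.46 with BxTAM and 1.89 with MDM rests on few counts. Its call with BxTAM was lost without library 1 of the cells alone or library 1 of BxTAM (adjusted p up to 0.0844).

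Membrane-bound semaphorins of classes 4, 6 and 7 were mostly higher. Of 9 tested, 7 were called higher with each kind of macrophage, and Sema6a was called lower with MDM. Sema7a, a glycolipid-anchored semaphorin that acts through integrins and plexin C1, had 19.8, 23.5 and 22.8 CPM with MiaTAM, 19.0, 15.2 and 16.98 with BxTAM, 24.9, 24.99 and 24.04 with MDM, and 8.18, 8.26 and 8.09 alone. The groups with macrophages lay wholly above the cells alone, by 1.43 ± 0.09 with MiaTAM, 1.06 ± 0.09 with BxTAM and 1.59 ± 0.09 with MDM (edgeR adjusted p of 4.79e-09 or less). Plxnc1, the plexin it binds, had 2 counts with MiaTAM, 4 with BxTAM, 5 with MDM and 8 alone, too few for a test.

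Sema4g, a class 4 transmembrane semaphorin, had 32.4, 30.1 and 30.96 CPM with MiaTAM, 21.7, 26.6 and 24.3 with BxTAM, 25.1, 23.2 and 24.7 with MDM, and 10.3, 11.3 and 10.01 alone. Its increase was 1.56 ± 0.08 with MiaTAM, 1.20 ± 0.08 with BxTAM and 1.20 ± 0.08 with MDM (edgeR adjusted p of 1.3e-10 or less), again with no overlap. Sema6c, a class 6 transmembrane semaphorin, had 7.04, 8.26 and 7.59 CPM with MiaTAM, 5.42, 6.9 and 5.22 with BxTAM, 7.44, 6.87 and 6.77 with MDM, and 3.18, 3.83 and 2.66 alone. It rose by 1.23 ± 0.14 with MiaTAM, 0.85 ± 0.15 with BxTAM and 1.12 ± 0.14 with MDM (edgeR adjusted p of 4.68e-05 or less), and its libraries with macrophages lay above all of those without. Sema7a, Sema4g and Sema6c, from 3 semaphorin classes, each rose by more than 1 on the log2 scale with MiaTAM. Changes of other members were smaller. Sema4a rose by 0.65 with MiaTAM, 0.65 with BxTAM and 0.55 with MDM, Sema4c by 0.45 with MiaTAM, 0.24 with BxTAM and 0.32 with MDM, and Sema4d, the ligand of Plxnb1, by 0.41 with MiaTAM, 0.38 with BxTAM and 0.39 with MDM. The call of Sema4c with BxTAM was lost without library 3 of the cells alone or library 1 or 3 of BxTAM (adjusted p up to 0.171). That of Sema4d was lost without library 3 of the cells alone with BxTAM and MDM, without library 1 of BxTAM, and without library 2 of MiaTAM (adjusted p up to 0.0631).

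A few membrane semaphorins differed by the kind of macrophage. Sema4b was 77.1 ± 5.59 CPM with MiaTAM, 69.7 ± 0.369 with BxTAM, 57.9 ± 2.27 with MDM and 54.3 ± 2.37 alone. It rose by 0.50 ± 0.05 with MiaTAM and 0.36 ± 0.05 with BxTAM, and its change with MDM, 0.09 ± 0.05, was not called except with upper-quartile scaling (0.15, adjusted p = 0.0213). It was higher with MiaTAM than with MDM by 0.41 ± 0.05 and with BxTAM than with MDM by 0.27 ± 0.05 (edgeR adjusted p = 4.25e-06 and 0.000657). Sema6a, a ligand of the A plexins Plxna2 and Plxna4, was 24.7 ± 0.992 CPM with MiaTAM, 25.8 ± 0.846 with BxTAM, 20.6 ± 0.946 with MDM and 26.01 ± 1.29 alone. It fell by 0.34 with MDM on the log2 scale and was not called with MiaTAM (-0.08) or BxTAM (-0.01). Its level was higher with MiaTAM than with MDM by 0.26 ± 0.07 and with BxTAM than with MDM by 0.32 ± 0.07. Sema6b, another class 6 member, was 2.67 ± 1.19 CPM with MiaTAM, 2.12 ± 0.223 with BxTAM, 3.36 ± 0.169 with MDM and 2.0 ± 0.0873 alone, with log2 differences from the cells alone of 0.39 with MiaTAM, 0.08 with BxTAM and 0.75 with MDM. The call was made with MDM only, but without library 1 of MiaTAM the difference with MiaTAM was 0.73 (adjusted p = 0.00171). MiaTAM against MDM was not called for it, and was -0.64 without library 2 of MiaTAM (0.036).

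The co-receptors of secreted semaphorins split by gene. Nrp2, the co-receptor preferred by Sema3f and shared by Sema3c, was 782 ± 1.93 CPM with MiaTAM, 868 ± 11.7 with BxTAM, 751 ± 11.3 with MDM and 889 ± 11.01 alone. It was lower than alone by 0.18 with MiaTAM and 0.24 with MDM on the log2 scale, and its difference of -0.03 with BxTAM was not called. Nrp1, the co-receptor of Sema3a and of VEGF, was 12.9 ± 0.447 CPM with MiaTAM, 10.4 ± 0.617 with BxTAM, 9.97 ± 1.91 with MDM and 8.75 ± 0.934 alone. It rose by 0.57 ± 0.11 with MiaTAM, and its changes of 0.25 ± 0.12 with BxTAM and 0.20 ± 0.12 with MDM were not called. With BxTAM it was called without library 1 of the cells alone (0.33, adjusted p = 0.0382), with upper-quartile scaling (0.0301), with only the 2 groups fitted (0.0378) and with a replicate block (0.0470). With MDM it was 0.32 without library 2 of MDM (0.0227).

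Of 6 tested plexins, 4 were called higher with MiaTAM, 3 with BxTAM and 4 with MDM, and 0 lower. Plxnb1, the receptor of Sema4d, had 1.3, 0.964 and 1.14 CPM with MiaTAM, 0.751, 0.403 and 0.769 with BxTAM, 0.75, 0.738 and 0.747 with MDM, and 0.398, 0.306 and 0.213 alone. No co-culture library was as low as the cells alone, but BxTAM library 2 at 0.403 CPM barely exceeded library 1 of the cells alone at 0.398. Plxnb1 had 17 counts over the libraries of cells alone. The change was 1.89 ± 0.33 with MiaTAM, 1.07 ± 0.38 with BxTAM and 1.28 ± 0.36 with MDM (edgeR adjusted p of 0.0194 or less). Its call with BxTAM was lost without library 3 of the cells alone or library 1 or 3 of BxTAM (adjusted p up to 0.0789). Plxnd1, known as the receptor of Sema3e in blood vessels, was 65.5 ± 6.91 CPM with MiaTAM, 59.1 ± 2.97 with BxTAM, 62.1 ± 3.26 with MDM and 42.5 ± 2.43 alone, and rose by 0.62 with MiaTAM, 0.48 with BxTAM and 0.55 with MDM. Plxna2, a receptor of class 6 and class 3 semaphorins, was 84.98 ± 0.764 CPM with MiaTAM, 83.9 ± 1.03 with BxTAM, 64.3 ± 2.01 with MDM and 56.7 ± 4.12 alone. It rose by 0.58 with MiaTAM, 0.57 with BxTAM and 0.18 with MDM, and by 0.40 ± 0.05 with MiaTAM and 0.38 ± 0.05 with BxTAM over MDM (edgeR adjusted p = 1.72e-06 and 3.7e-06). Plxna3 was called higher with MDM only, by 0.23, with -0.03 with MiaTAM and -0.0022 with BxTAM. Plxna1 was higher with MiaTAM by 0.19, while 0.10 with BxTAM and 0.06 with MDM were not called. Without library 1 of the cells alone it was 0.16 with BxTAM (adjusted p = 0.0136), and upper-quartile scaling called it with BxTAM (0.0103) and MDM (0.0451). Plxnb2, the most abundant plexin on the FPKM scale, had log2 differences of 0.09, -0.04 and 0.05 with MiaTAM, BxTAM and MDM, and was called in none of these. Its difference with MiaTAM was called without library 1 or 2 of the cells alone, without library 1 of MiaTAM and with other scaling (0.10 to 0.16), and that with MDM with upper-quartile scaling (0.11).

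**Figure D4:**
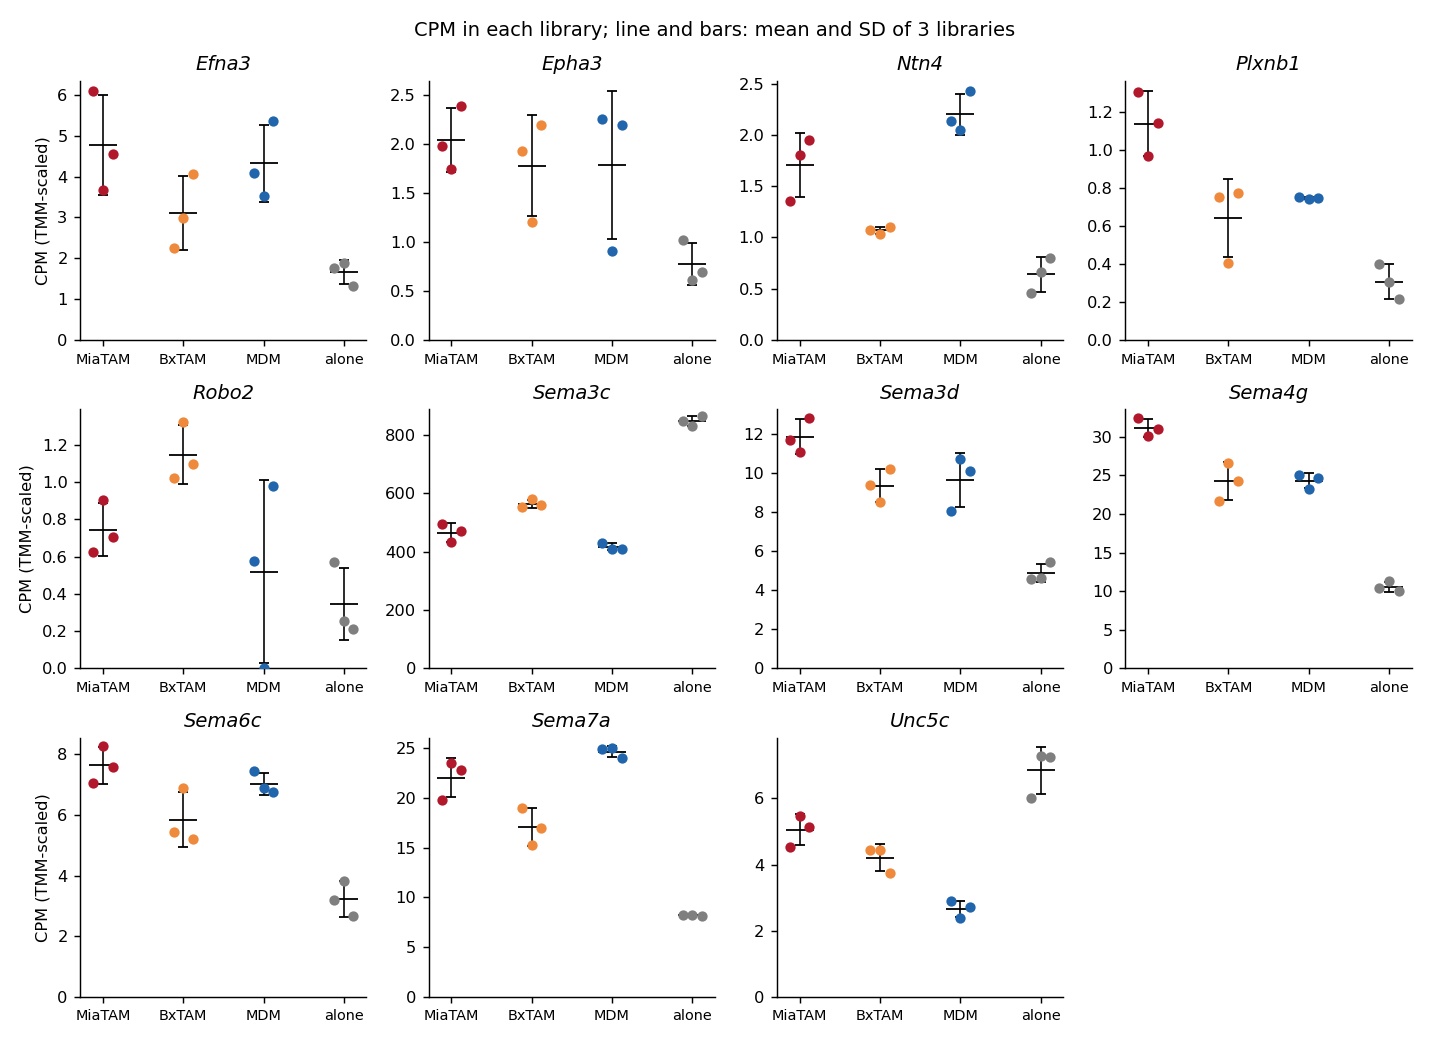
CPM of 11 members in each library, with the mean and SD of 3 libraries, for MiaTAM, BxTAM, MDM and the cells alone, on an axis from 0 for each gene. The 3 libraries of cells alone are the highest for Sema3c and Unc5c and the lowest, with no overlap, for Sema7a, Sema4g and Sema3d.

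The netrin system was thinly represented on the ligand side. Ntn4, a secreted netrin related to laminins, had 1.36, 1.81 and 1.95 CPM with MiaTAM, 1.07, 1.04 and 1.1 with BxTAM, 2.13, 2.04 and 2.43 with MDM, and 0.455, 0.663 and 0.799 alone. It rose by 1.39 ± 0.26 with MiaTAM, 0.73 ± 0.28 with BxTAM and 1.77 ± 0.24 with MDM (edgeR adjusted p = 7.51e-05, 0.0302 and 1.93e-06), and its libraries did not overlap with those of the cells alone. The call with BxTAM was lost without library 1 or 2 of the cells alone or without any one of the 3 BxTAM libraries (adjusted p up to 0.129). Ntn3, the other tested netrin, was called in none of the 6 comparisons, with log2 changes from -0.17 to 0.31.

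The 2 tested Unc5 receptors, which mediate repulsion from netrins, moved in opposite directions. Unc5b was 115 ± 6.36 CPM with MiaTAM, 120.4 ± 4.07 with BxTAM, 130.1 ± 4.22 with MDM and 75.7 ± 2.23 alone, and rose by 0.60 with MiaTAM, 0.67 with BxTAM and 0.78 with MDM. Unc5c had 4.54, 5.48 and 5.15 CPM with MiaTAM, 4.45, 4.43 and 3.74 with BxTAM, 2.88, 2.39 and 2.71 with MDM, and 6.02, 7.29 and 7.24 alone. All co-culture libraries were below the cells alone, and those with MDM were the lowest. Its change was -0.45 ± 0.12 with MiaTAM, -0.71 ± 0.13 with BxTAM and -1.37 ± 0.14 with MDM (edgeR adjusted p = 0.0034, 6.59e-05 and 2.59e-08). The gene stood higher with MiaTAM than with MDM by 0.92 ± 0.14 and with BxTAM than with MDM by 0.66 ± 0.15 (edgeR adjusted p = 3.82e-05 and 0.00182).

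In the Slit and Robo pathway, Robo1 was lower in each co-culture and the ligand Slit2 was higher with both TAM kinds. Robo1, the receptor that mediates repulsion from Slits, was 32.4 ± 1.11 CPM with MiaTAM, 34.99 ± 0.226 with BxTAM, 31.6 ± 1.71 with MDM and 50.9 ± 2.09 alone. The change was -0.65 ± 0.06 with MiaTAM, -0.54 ± 0.06 with BxTAM and -0.69 ± 0.06 with MDM (edgeR adjusted p of 8.86e-08 or less), with no overlap between any co-culture and the cells alone. Slit2 was 205 ± 8.5 CPM with MiaTAM, 229 ± 6.62 with BxTAM, 178 ± 4.96 with MDM and 169 ± 6.0 alone. It rose by 0.28 ± 0.04 with MiaTAM and 0.44 ± 0.04 with BxTAM, and its change of 0.07 ± 0.04 with MDM was not called except with upper-quartile scaling (0.13, adjusted p = 0.00861). It was higher with MiaTAM and with BxTAM than with MDM, by 0.21 ± 0.04 and 0.37 ± 0.04 (edgeR adjusted p = 0.00051 and 7.88e-07).

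Robo2 and Slit1 were measured near the lower limit. Robo2 had 0.626, 0.904 and 0.705 CPM with MiaTAM, 1.02, 1.32 and 1.1 with BxTAM, 0.577, 0 and 0.98 with MDM, and 0.568, 0.255 and 0.213 alone, where 1 MDM library had 0 counts. The MiaTAM and BxTAM libraries lay above the cells alone, and those with MDM spanned them. It was called higher with BxTAM, by 1.73 ± 0.52 (edgeR adjusted p = 0.00705), and not with MiaTAM (1.11 ± 0.57) or MDM (0.68 ± 0.60). Without that MDM library, the change with MDM was 1.21 (adjusted p = 0.0196), and without library 3 of MDM it was -0.24. The change with MiaTAM was 1.64 without library 1 of the cells alone (0.0456), and was called with only the 2 groups fitted (0.0231). Slit1 was 0.721 ± 0.25 CPM with MiaTAM, 0.311 ± 0.214 with BxTAM, 0.435 ± 0.113 with MDM and 0.186 ± 0.20 alone. Its change of 1.97 ± 0.59 with MiaTAM was called and was 3.11 without library 1 of the cells alone. Its changes of 0.79 ± 0.71 with BxTAM and 1.28 ± 0.65 with MDM were not called. Without that same library the change with MDM was 2.41 (adjusted p = 0.0166). Robo1 and Robo2 lie 919.5 kb apart on chromosome 11 of Rnor_6.0, the build of the deposited table.

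All 4 tested A-type ephrins, which are anchored to the membrane by a glycolipid and bind EphA receptors, were called higher with each kind of macrophage. Efna3 had 6.1, 3.68 and 4.55 CPM with MiaTAM, 2.25, 2.99 and 4.07 with BxTAM, 4.09, 3.52 and 5.37 with MDM, and 1.76, 1.89 and 1.33 alone. The co-cultures did not overlap with the cells alone, and the change was 1.53 ± 0.24 with MiaTAM, 0.90 ± 0.26 with BxTAM and 1.39 ± 0.24 with MDM (edgeR adjusted p = 1.21e-05, 0.0055 and 4.16e-05). Without library 3 of BxTAM the call with BxTAM was lost (adjusted p = 0.0532). Efna1, the main ligand of Epha2, was 26.5 ± 2.44 CPM with MiaTAM, 25.5 ± 0.691 with BxTAM, 25.5 ± 0.45 with MDM and 16.2 ± 1.25 alone, and rose by 0.71 with MiaTAM, 0.66 with BxTAM and 0.66 with MDM. Efna4 rose by 0.39 with MiaTAM, 0.48 with BxTAM and 0.63 with MDM. The genes Efna1, Efna3 and Efna4 are neighbours on chromosome 2 of Rnor_6.0, between bases 188588796 and 188660179, with gaps of 41.6 and 10.7 kb. Efna5, on another chromosome, rose by 0.57 with MiaTAM, 0.45 with BxTAM and 0.42 with MDM, and its call with MDM was lost without library 1 of the cells alone (adjusted p = 0.0528).

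The transmembrane B-type ephrins differed from each other. Efnb1 was 69.3 ± 4.45 CPM with MiaTAM, 59.3 ± 1.0 with BxTAM, 57.3 ± 1.62 with MDM and 46.5 ± 2.12 alone, and rose by 0.57 with MiaTAM, 0.35 with BxTAM and 0.30 with MDM. Efnb2, the partner of Ephb4 in blood vessels, was 82.3 ± 0.85 CPM with MiaTAM, 95.4 ± 4.39 with BxTAM, 71.7 ± 4.84 with MDM and 88.8 ± 1.64 alone. It was lower with MDM by 0.31 on the log2 scale (edgeR adjusted p = 1.33e-05), while -0.11 with MiaTAM and 0.10 with BxTAM were not called. The difference with BxTAM was called without library 1 of BxTAM (0.14, adjusted p = 0.0345), with only the 2 groups fitted (0.0378) and with upper-quartile scaling (0.16, 0.00765).

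All 5 tested EphA receptors were called higher with each kind of macrophage. Epha2, the most abundant, was 637 ± 25.8 CPM with MiaTAM, 615 ± 17.9 with BxTAM, 679 ± 20.1 with MDM and 508 ± 5.54 alone, and rose by 0.33 ± 0.04 with MiaTAM, 0.28 ± 0.04 with BxTAM and 0.42 ± 0.04 with MDM (edgeR adjusted p of 4.38e-06 or less). Its ligand Efna1 rose as well. Epha3, a receptor of A-type ephrins, had 1.98, 1.75 and 2.39 CPM with MiaTAM, 1.93, 1.21 and 2.2 with BxTAM, 2.25, 0.909 and 2.19 with MDM, and 1.02, 0.612 and 0.692 alone. The libraries with MiaTAM and with BxTAM lay above those of the cells alone, while 1 with MDM overlapped them. The change was 1.40 ± 0.33 with MiaTAM, 1.21 ± 0.34 with BxTAM and 1.22 ± 0.33 with MDM (edgeR adjusted p of 0.00401 or less). Epha4, which binds ephrins of both types, rose by 0.68 with MiaTAM, 0.82 with BxTAM and 0.79 with MDM. Epha5 and Epha7 were under 1 CPM or near it. Epha5 changed by 1.07 with MiaTAM, 1.17 with BxTAM and 0.98 with MDM. Its call with MDM was lost without library 1 or 2 of the cells alone or library 1 of MDM (adjusted p up to 0.144), and that with MiaTAM without library 2 of MiaTAM (0.0704). Epha7 changed by 0.82 with MiaTAM, 0.69 with BxTAM and 0.93 with MDM. Without library 1 of the cells alone its change was 0.44 with BxTAM (adjusted p = 0.167), and the call with MiaTAM was lost as well (0.0664). The call with BxTAM was also lost without library 1 or 2 of BxTAM.

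Of 4 tested EphB receptors, 4 were called higher with MiaTAM, 1 with BxTAM and 3 with MDM. Ephb6, an Eph receptor without kinase activity, was 26.9 ± 1.83 CPM with MiaTAM, 24.7 ± 1.35 with BxTAM, 20.7 ± 1.05 with MDM and 15.7 ± 1.14 alone, and rose by 0.78 with MiaTAM, 0.66 with BxTAM and 0.40 with MDM. The log2 difference of Ephb4 was 0.20 with MiaTAM, 0.10 with BxTAM and 0.11 with MDM, and that of Ephb3 was 0.19 with MiaTAM, 0.07 with BxTAM and 0.23 with MDM. Ephb4 was called with MiaTAM, and Ephb3 with MiaTAM and MDM. Without library 2 of the cells alone Ephb4 was 0.16 with BxTAM (adjusted p = 0.0284) and 0.16 with MDM (0.0242), and upper-quartile scaling called both. The call of Ephb3 with MiaTAM was lost without library 1 or 3 of the cells alone or library 1 or 2 of MiaTAM (adjusted p up to 0.0969). Ephb2 stayed under 1 CPM in every group, with 69 counts in all. Its mean was 0.391 ± 0.169 CPM with MiaTAM, 0.132 ± 0.135 with BxTAM, 0.625 ± 0.0612 with MDM and 0.106 ± 0.0516 alone. It was called higher with MiaTAM, by 1.79 ± 0.61, and with MDM, by 2.46 ± 0.55, but not with BxTAM (0.25 ± 0.78). The call with MiaTAM was lost without library 1 of the cells alone or library 3 of MiaTAM (adjusted p up to 0.0801).

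Between the kinds of macrophage, members changed about as often as genes at large. MiaTAM against MDM co-culture gave 13 higher (28.3%) and 3 lower (6.52%) of 46, a share of 34.8% against 41.0% of all tested genes, of which 19.8% were higher and 21.1% lower. BxTAM against MDM co-culture gave 9 higher (19.6%) and 7 lower (15.2%), a share of 34.8% against 34.7%, with 17.4% of all tested genes higher and 17.3% lower. MiaTAM against BxTAM gave 10 higher (21.7%) and 4 lower (8.7%), a share of 30.4% against 24.2%, with 11% of all tested genes higher and 13.3% lower. Of these 14 calls, 3 higher and 4 lower held under every alternative. The median log2 change of tested members was 0.11, -0.01 and 0.12 in the same order. No member reached a called change of 2-fold in MiaTAM against MDM or against BxTAM, and 2 did in BxTAM against MDM (1.75% of all tested genes did, 1.59% in MiaTAM against MDM and 0.267% in MiaTAM against BxTAM). Of the 32 members with a mean of at least 5 CPM, 12 were higher and 3 lower in MiaTAM against MDM (22.4% and 23.8% of genes at that level), 8 and 4 in BxTAM against MDM (19.9% and 18.9%), and 7 and 4 in MiaTAM against BxTAM (12.5% and 16%). MiaTAM and BxTAM are each compared here with the same 3 MDM libraries.

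**Figure D5:**
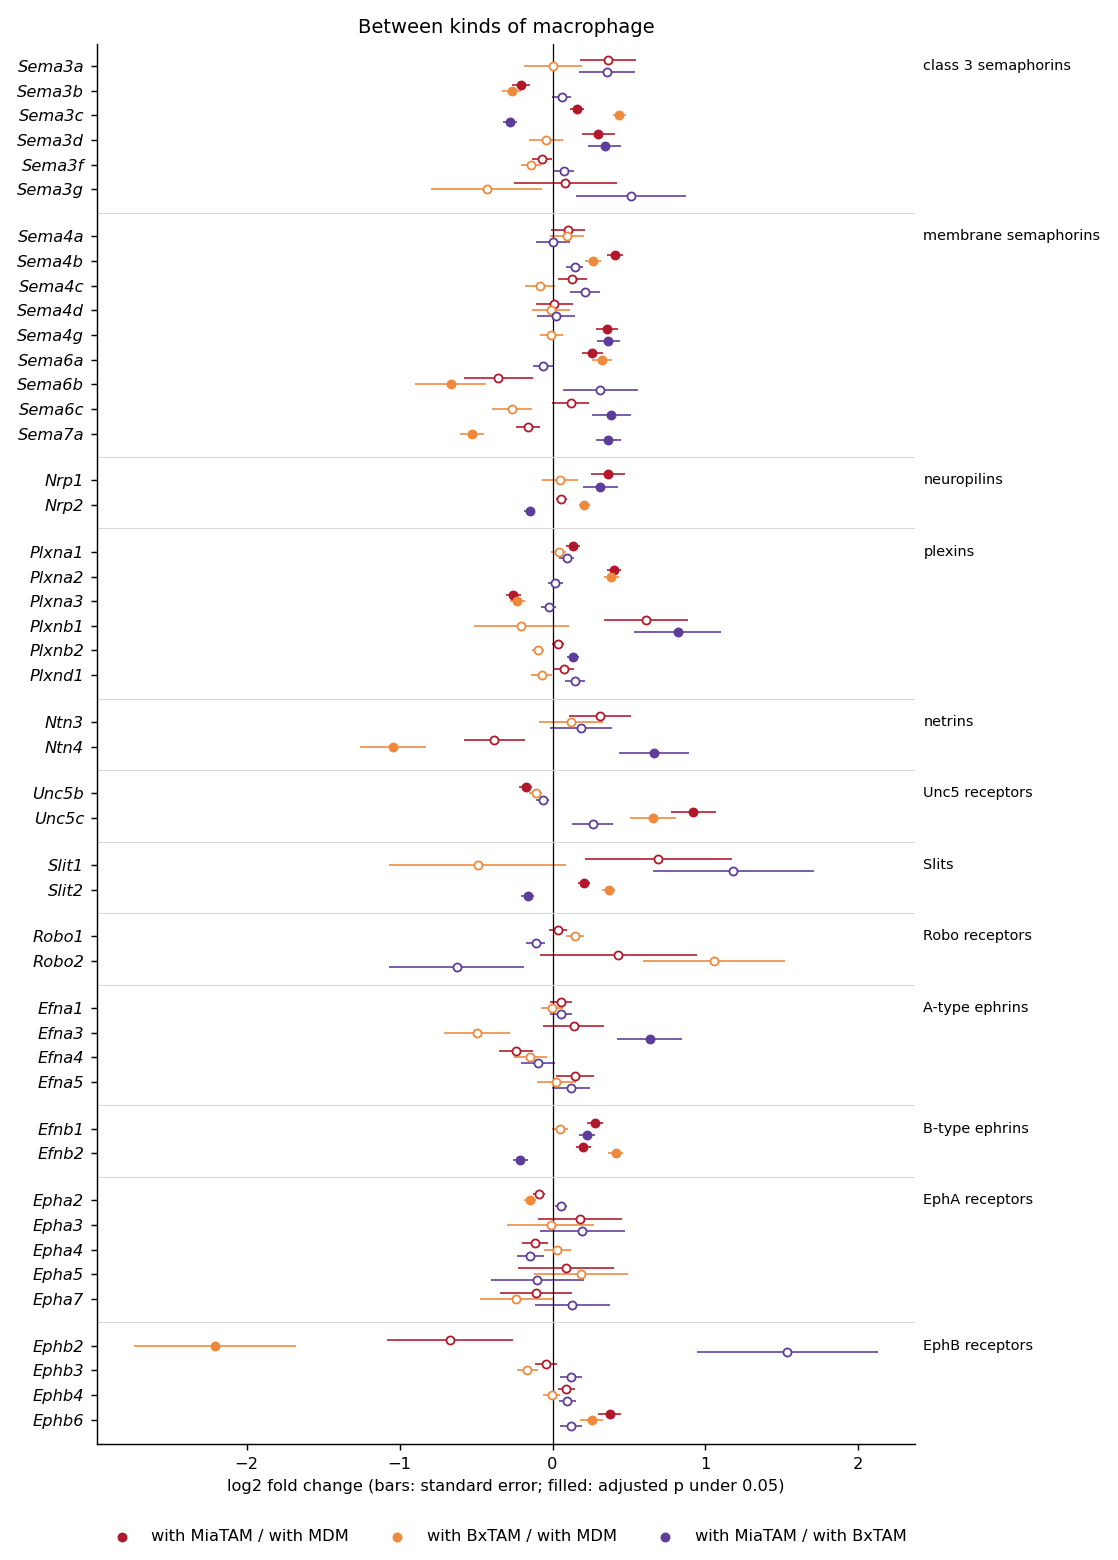
Log2 change ± standard error of the 46 tested members for MiaTAM against MDM, BxTAM against MDM and MiaTAM against BxTAM co-culture. Filled symbols were called at an adjusted p under 0.05, and Ephb2 and Ntn4 in BxTAM against MDM are the 2 called below -1.

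Several members were higher with both TAM kinds than with MDM. Besides Unc5c, Plxna2, Slit2, Sema4b and Sema6a, given above, Sema3c was higher with MiaTAM by 0.16 ± 0.04 and with BxTAM by 0.44 ± 0.04 (edgeR adjusted p = 0.00677 and 1.74e-07). Efnb2 was higher by 0.20 ± 0.05 with MiaTAM and 0.41 ± 0.05 with BxTAM, and Ephb6 by 0.37 ± 0.07 and 0.26 ± 0.07. The call of Ephb6 with BxTAM was lost without library 2 of BxTAM (adjusted p = 0.0517). Sema3c, Efnb2 and Unc5c had all been lower with MDM than in the cells alone, and with both TAM kinds they lay between the MDM level and the level alone, except that Efnb2 with BxTAM was above the mean alone.

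Other members were lower with TAM than with MDM. With BxTAM these included Ntn4 (-1.04 ± 0.22, edgeR adjusted p = 0.000888), Sema7a (-0.53 ± 0.08, 3.65e-05) and Sema6b (-0.67 ± 0.23, 0.0313). The call of Sema6b was lost without library 2 or 3 of BxTAM or of MDM (adjusted p up to 0.102). Ephb2 was lower with BxTAM by 2.21 ± 0.53 on the log2 scale, and by 3.36 without library 2 of BxTAM. Plxna3 was lower with both, by 0.26 ± 0.05 with MiaTAM and 0.23 ± 0.05 with BxTAM. Sema3b was lower by 0.21 with MiaTAM, lost without library 3 of MiaTAM (adjusted p = 0.0542), and by 0.27 with BxTAM. Unc5b was lower with MiaTAM by 0.18, and Epha2 with BxTAM by 0.14.

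The remaining calls against MDM were small. Sema4g, Efnb1, Nrp1, Sema3d and Plxna1 were higher with MiaTAM than with MDM by 0.36, 0.27, 0.36, 0.30 and 0.13, and Nrp2 was higher with BxTAM than with MDM by 0.21. Of these, Nrp1 was lost without library 1 or 2 of MDM (adjusted p up to 0.0896). Plxna1 was lost without any one MDM library or library 2 or 3 of MiaTAM (up to 0.103). Sema3d was lost without library 1 of MDM, at a change of 0.19, or library 1 or 3 of MiaTAM (up to 0.182). Some calls were gained without 1 library and with a move of over 1.5 times. In BxTAM against MDM this was Robo2, at 1.97 without library 3 of MDM. In MiaTAM against MDM these were Sema4c, at 0.24 without library 3 of MiaTAM, and Sema6b, at -0.64 without library 2 of MiaTAM.

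The kinds of TAM differed from each other in 14 members, none by 2-fold. Sema7a and Sema4g were higher with MiaTAM than with BxTAM, by 0.36 ± 0.08 and 0.37 ± 0.07 (edgeR adjusted p = 0.00333 and 0.00144), and Efnb1 by 0.22 ± 0.05 (0.00433). Sema3c, Slit2, Nrp2 and Efnb2 were lower with MiaTAM, by 0.28, 0.16, 0.15 and 0.21 on the log2 scale. These 7 calls held with any library left out. The other 7, Efna3, Nrp1, Ntn4, Plxnb1, Plxnb2, Sema3d and Sema6c, were all higher with MiaTAM, by 0.13 to 0.82, and each was lost on leaving out at least 1 single library (adjusted p up to 0.197). Plxnb1 and Nrp1 were lost whichever MiaTAM or BxTAM library was left out, and Ntn4 with any of these left out except MiaTAM library 1. The difference of Efna3 was 0.41 without library 1 of MiaTAM. Leaving out 1 library also added calls, of which Ephb2 (2.69 without BxTAM library 2), Sema6b (0.64 without MiaTAM library 1) and Sema4c (0.32 without MiaTAM library 3) moved by over 1.5 times. The number called in this comparison was 8 without BxTAM library 1 and 9 without BxTAM library 2 or 3 or MiaTAM library 2 or 3. Calls over all genes were 2997 with all libraries, 2528 without BxTAM library 1 and 1933 to 2406 without the others named.

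Genes that act beside these ligands and receptors were counted from a list of 86 co-receptors, adaptors, downstream effectors and other cues, of which 66 were tested. With MiaTAM 30 were higher and 17 lower than alone, with BxTAM 30 and 13, and with MDM 24 and 22. Those are 71.2%, 65.2% and 69.7% of the list, near the 65.1%, 60.9% and 65.1% of all tested genes. The median log2 change was 0.14, 0.12 and 0.03 in the same order, against -0.0063, 0.001 and -0.0061 over all tested genes. Against MDM co-culture, 26 were higher and 12 lower with MiaTAM, and 18 and 8 with BxTAM, while MiaTAM against BxTAM gave 10 and 10. The shares of the list called there were 57.6%, 39.4% and 30.3%, against 41.0%, 34.7% and 24.2% of all tested genes. A called log2 change of at least 0.58 was reached by 21 of them, and Pgf, Cxcl12, Gpc1, Srgap3, Mical1, Flrt1 and Chl1 were among the largest.

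Pgf, a VEGF-family ligand of Nrp1 and Flt1, averaged 7.04 ± 0.206 CPM with MiaTAM, 5.83 ± 0.147 with BxTAM, 11.9 ± 0.701 with MDM and 2.52 ± 0.175 alone, and its log2 change against the cells alone was 1.48 ± 0.12 with MiaTAM, 1.21 ± 0.12 with BxTAM and 2.24 ± 0.11 with MDM. Cxcl12, a chemokine that also guides migrating cells and axons, averaged 138 ± 2.85 CPM with MiaTAM, 221 ± 4.65 with BxTAM, 79.1 ± 3.63 with MDM and 234 ± 1.35 alone. It was lower with MDM by 1.57 and with MiaTAM by 0.76 on the log2 scale, and its difference with BxTAM was not called (edgeR adjusted p = 0.0525). Mical1, an oxidoreductase of actin that works downstream of plexins, rose by 1.46 ± 0.12 with MiaTAM, 1.34 ± 0.12 with BxTAM and 1.26 ± 0.12 with MDM. Gpc1, a glypican that can bind Slits, rose by 1.53 ± 0.13 with MiaTAM, 0.88 ± 0.14 with BxTAM and 1.32 ± 0.13 with MDM. Srgap3, from the family of GTPase-activating proteins that bind Robo receptors, rose by 1.29 ± 0.18 with MiaTAM, 0.92 ± 0.19 with BxTAM and 1.501 ± 0.177 with MDM. Flrt1, of a family whose members bind Unc5 receptors, rose by 1.05 ± 0.16 with MiaTAM, 1.09 ± 0.16 with BxTAM and 1.40 ± 0.15 with MDM. Chl1, an adhesion molecule that associates with neuropilins, was under 1 CPM and was called only in MiaTAM against MDM co-culture, by 1.17 ± 0.46 (edgeR adjusted p = 0.0495).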

How the data were processed

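RNA was column-purified and made into stranded mRNA libraries, per the labels' protocols. The build Rnor_6.0 and the tools HISAT2, StringTie 1.3.0 and CASAVA are named in the submitters' processing notes. What tool counted reads, with which annotation and strand setting, was not given in the sources used. Per the file headers, the authors deposited whole-number counts for each gene and library, without normalization, and FPKM values, which they scaled by gene length and library total.

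Groups were read from sample titles. Counts were analysed in edgeR 4.0.16 under R 4.3.3: filterByExpr by group left 12360 genes, TMM factors were 0.98 to 1.01, and 1 quasi-likelihood fit over all 12 libraries had a mean for each group (common dispersion 0.00218, 8 residual and 11.97 prior degrees of freedom). P-values were Benjamini-Hochberg adjusted over all tested genes, separately for each of 6 comparisons. Standard errors were the size of the change over the square root of F. Floors cover the counting error of the cells alone only.

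The members, lists and tests were chosen with earlier results of these data known. The value in every library is given for members with at least 1 CPM in the highest group and a called log2 change of at least 1 in any comparison, and Epha5, Ephb2, Slit1 and Sema3g fell short of that level. For the list of other pathway genes, of which 84 of 86 symbols were found, up to 8 with a called change of at least 0.58 are named. Not every gene chosen by these rules is reported here. Of the 46 tested members, 5 overlap another gene's row, none with 5% or more of the member's count. Promoter windows are from RefSeq on GRCr8, and no coordinates were converted between builds.

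Alternatives were size factors of DESeq2, upper-quartile factors, no filter, the DESeq2 1.42.0 Wald test, the 2 compared groups only, a replicate block and each library left out. limma 3.58.1 was loaded with edgeR.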

Additional observations from a re-analysis of the deposited data

Results flagged for a closer look

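The effects of the kinds of TAM on Schwann cells differed in 14 members when MiaTAM was tested directly against BxTAM co-culture (edgeR, adjusted p under 0.05, 3 libraries against 3). Higher with MiaTAM were Plxnb1 (log2 change 0.82), Ntn4 (0.66), Efna3 (0.63), Sema6c (0.38), Sema4g (0.37), Sema7a (0.36), Sema3d (0.34), Nrp1 (0.31), Efnb1 (0.22) and Plxnb2 (0.13). Lower with MiaTAM were Sema3c (-0.28), Efnb2 (-0.21), Slit2 (-0.16) and Nrp2 (-0.15). As the same cells alone serve for both, this contrast is also the difference between their effects against the cells alone. Of the tested members 30.4% were called in it, and of all tested genes 24.2%. The calls of Efna3, Sema6c, Sema3d and Plxnb2 were each lost on leaving out any of several single libraries. Those of Plxnb1 and Nrp1 were lost whichever MiaTAM or BxTAM library was left out. That of Ntn4 was lost on leaving out any of these except MiaTAM library 1. Over all alternatives, Plxnb1 was lost in 9 of 12, Ntn4 in 8 and Nrp1 in 7.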

How the results depend on the processing

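None of the called changes of the 46 tested members changed sign under the alternatives run. Differences that were not called could: with upper-quartile factors Plxna3 (0.05), Sema6a (0.04), Nrp2 (0.02), Plxnb2 (0.01) and Ntn3 (0.01) with BxTAM and Plxna3 (0.05) with MiaTAM turned positive against the cells alone. Of 153 calls over 6 comparisons, 125 held under every alternative and 28 were lost under at least 1. With each library left out in turn, the number of members called was 36 to 40 for MiaTAM, 27 to 32 for BxTAM and 35 to 38 for MDM against the cells alone, 13 to 17 for MiaTAM and 15 to 18 for BxTAM against MDM, and 8 to 14 for MiaTAM against BxTAM. Over all genes tested there (12460 to 12475), calls against the cells alone were 7561 to 7798, 6918 to 7104 and 7448 to 7633. Between kinds of macrophage they were 4234 to 4777, 3415 to 3803 and 1933 to 3113 in the same order. With all libraries, 8041, 7524, 8047, 5062, 4291 and 2997 of 12360 genes were called. The count of members for MiaTAM against BxTAM was 14 with all libraries, 8 without BxTAM library 1 and 9 without BxTAM library 2 or 3 or MiaTAM library 2 or 3, where fewer libraries entered the test. Calls over all genes fell there too, from 2997 to 2528 without BxTAM library 1 and to between 1933 and 2406 without the others named. Upper-quartile factors gave 40, 36, 41, 16, 16 and 15 calls of members in the same order, the DESeq2 Wald test 40, 28, 35, 15, 16 and 10. Over all 12360 genes, upper-quartile factors gave 8110, 7561, 8076, 5055, 4268 and 3027 calls. The DESeq2 Wald test gave 7587, 7025, 7554, 4526, 3836 and 2638. With upper-quartile factors the median log2 change of all tested genes against the cells alone was itself above 0. It was 0.0676 with MiaTAM, 0.0568 with BxTAM and 0.0527 with MDM, so small calls added by this scaling carry that shift.

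The replicate block gave 39, 33, 36, 16, 16 and 14 calls of members, against 39, 32, 36, 16, 16 and 14 without it. Over all 12360 genes the block gave 8021, 7496, 8046, 5059, 4275 and 2993 calls. None of 18 same-number pairs of libraries had deviations correlated above 0.1 (-0.13 to 0.09). A library's best match had its own number in some single groups, but for 0 of 12 libraries was this so in every other group.

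Depth limits the members under or near 1 CPM, among them Ephb2, Slit1, Sema3g, Plxnb1 and Robo2, and nothing can be said of members under the filter beyond their counts. The identity of the line as Schwann cells rests on the labels, since Sox10 had 1 count in all.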
